A study of Homo sapiens with 6 samples.

Results

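The genes described here are the 10 private subunits of the COMPASS complexes other than the menin-containing MLL1/2 complexes: KMT2C, KMT2D, KDM6A, PAXIP1, PAGR1 and NCOA6 of the MLL3/4 complexes, and SETD1A, SETD1B, CXXC1 and WDR82 of the SETD1 complexes. They were picked by gene symbol from 62754 genes, and each symbol matched 1 gene. All 10 passed the filter on low values, a TPM (a share of the library's transcripts, scaled by length and summing to 1000000) of 1 or more in at least 3 libraries, which left 14294 genes to test.

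The study asked about the part of the MLL1 complex in keeping fetal hemoglobin repressed. The 6 libraries were made from poly(A) RNA of HUDEP-2, an immortalised line of human erythroid progenitors. Of these, 3 came from cells transduced with a lentiviral shRNA against MEN1, the gene of menin, and 3 from cells with a control shRNA, whose genotype label is WT. The labels give both groups the same culture, selection and harvest. The medium was StemSpan SFEM with doxycycline (1 µg per ml), dexamethasone (1e-06 M), and the cytokines EPO (3 units per ml) and SCF (50 ng per ml). A 48 h puromycin selection (2 µg per ml) began 24 h after infection, and harvest was at 72 h. The labels give 1 MEN1 hairpin, so loss of menin and off-target effects cannot be told apart. Replicates are labelled biological, without saying whether each was a separate transduction, so p-values measure the spread between these libraries only.

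COMPASS complexes are the main methyltransferases of lysine 4 of histone H3 (H3K4), and share the core proteins WDR5, RBBP5, ASH2L and DPY30. The MLL3/4 complexes, built on KMT2C or KMT2D, place monomethylation at enhancers and carry KDM6A, a demethylase of H3 lysine 27. The SETD1 complexes, built on SETD1A or SETD1B, place most H3K4 trimethylation at active promoters, where CXXC1 binds unmethylated CG dinucleotides and WDR82 contacts RNA polymerase II.

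Because CXXC1 reads CG dinucleotides at promoters, the members' own promoters were described by their CG content, from the RefSeq promoter windows on GRCh38.p14 (250 bases before to 50 after the start). Of the 10 members, 7 have a window in that table, and PAXIP1, NCOA6 and SETD1B have none. The 7 windows hold 24 (PAGR1) to 56 (KMT2C) CG dinucleotides, against a median of 14 and quartiles of 4 and 28 over all 35116 windows, of which 96.0% hold at least 1. KMT2C stands at the top, with fewer CG in 99.7% of all windows, while its paralog KMT2D has 27. The bases upstream of the RefSeq start that lie outside annotated exons are shown for KDM6A, which rose, and for PAGR1, which fell. They are also shown for the paralogs KMT2C and KMT2D, whose windows differ in CG number. For PAGR1 these are only the 50 bases farthest from the start. The windows of KMT2C, SETD1A and WDR82 lie inside the deposited genes, which begin farther upstream. Capitals mark each CG, read 5′ to 3′ on the gene's strand.
KDM6A (chrX:44872938-44873176, plus strand, 27 CG in 239 bases): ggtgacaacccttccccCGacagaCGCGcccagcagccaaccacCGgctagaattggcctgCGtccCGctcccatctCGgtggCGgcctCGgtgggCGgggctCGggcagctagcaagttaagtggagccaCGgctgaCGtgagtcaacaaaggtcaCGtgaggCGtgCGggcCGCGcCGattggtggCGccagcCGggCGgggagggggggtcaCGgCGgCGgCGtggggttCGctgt
PAGR1 (chr16:29815902-29815951, plus strand, 6 CG in 50 bases): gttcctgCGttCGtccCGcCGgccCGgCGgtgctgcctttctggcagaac
KMT2C (chr7:152436006-152436253, minus strand, 48 CG in 248 bases): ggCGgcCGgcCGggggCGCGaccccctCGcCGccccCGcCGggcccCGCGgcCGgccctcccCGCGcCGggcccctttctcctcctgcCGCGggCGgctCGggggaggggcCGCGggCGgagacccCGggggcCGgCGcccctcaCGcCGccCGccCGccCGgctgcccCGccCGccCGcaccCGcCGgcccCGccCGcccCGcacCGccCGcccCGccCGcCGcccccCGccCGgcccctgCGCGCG
KMT2D (chr12:49060795-49061044, minus strand, 23 CG in 250 bases): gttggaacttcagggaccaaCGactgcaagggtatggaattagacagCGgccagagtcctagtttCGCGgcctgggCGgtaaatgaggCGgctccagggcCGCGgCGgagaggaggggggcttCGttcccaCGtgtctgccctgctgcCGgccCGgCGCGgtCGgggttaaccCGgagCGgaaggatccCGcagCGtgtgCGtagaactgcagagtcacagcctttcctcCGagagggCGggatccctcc
On both strands of the 7 windows, the GATA-type word AGATAA occurred in 0 (10.3% of all windows hold it), the YY1-type word AAGATGGC in 2, those of CXXC1 and PAGR1 (2.89% of all), and the KLF-type word CACCC in 3, those of KMT2C, PAGR1 and WDR82 (59.9% of all). These matches describe the letters of the windows only.

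MEN1, the targeted gene, had 6.29, 6.44 and 6.88 TPM in MEN1 shRNA replicates 1, 2 and 3 and 41.2, 39.6 and 37.1 TPM in the controls, a log2 fold change of -2.42 (SE 0.0803, limma adjusted p = 8.5e-06). Depth, inferred from deposited coverage, was 5564769113 to 10810847139 aligned bases per library, and the members were read at 7.73 to 339 reads per base. Across genes, log2(TPM + 1) of 2 libraries correlated at 0.985 to 0.989 within groups and 0.934 to 0.954 between them. All 10 erythroid markers were expressed, and 7 of 10 were called higher with the MEN1 shRNA, against 22.1% of all genes tested. KLF1, GATA1 and EPOR were not called (log2 fold changes -0.05, 0.06 and 0.02, limma adjusted p = 0.508, 0.327 and 0.859). The summed TPM of the 10 was 75600.3 to 83358 against 45119 to 49269 in the controls. Most of it was globin: HBB and HBA1 had means of 50171 and 23556 TPM with the MEN1 shRNA, and 30237 and 12208 TPM in the controls. Of 5 megakaryocyte markers, PF4 and PPBP were at 0 in every library and 4 stayed at or under 1 TPM (sums 16.6 to 21.1 against 31.6 to 36.4). Of 5 myeloid markers 4, and of 5 lymphoid markers 5, stayed at or under 1 TPM (sums 0.396 to 0.964 against 2.13 to 2.40, and 0.274 to 0.958 against 0.530 to 0.812). Of 4 mast cell markers 2 did, but the sum was 422 to 505 against 577 to 750. The part of these marker differences in the members' results was not tested, and in bulk RNA fewer cells of a type and less RNA per cell cannot be told apart.

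With the MEN1 shRNA, 2 of the 10 members rose, KDM6A and CXXC1, and 2 fell, PAGR1 and SETD1A, while KMT2C, KMT2D, PAXIP1, NCOA6, SETD1B and WDR82 did not pass the test. That is 40.0% of the members, against 53.6% of all 14294 genes tested (22.1% higher and 31.5% lower). The comparison depended on the scaling and on the filter. Under median-of-ratios scaling 60.0% of the members were called (4 higher, 2 lower) against 52.9% of all genes. Rescaling without globin and mitochondrial genes, and quantile normalization, each called 4 members higher and 1 lower (50.0%), against 52.8% and 53.1% of all genes. With no filter 30.0% of the members were called (1 higher, 2 lower), against 19.4% of the 35241 genes then tested. With 1 library left out the count of members was 1 (without MEN1 shRNA replicate 2 or control replicate 3), 2 (without control replicate 1), 3 or 4. The count over all genes fell as well, from 7657 to between 6577 and 7542. It was 6577 without MEN1 shRNA replicate 2, 6687 without control replicate 3 and 6875 without control replicate 1. The changes of the members were small: log2 fold changes ran from -0.51 to 0.38, with a median size of 0.22 against 0.37 over all genes. A change of 2-fold was reached by 0 of 10 members and by 1731 of the 14294 genes tested. With 10 members, that 0 is a description only. The median signed change was 0.11 for the members and -0.07 over all genes. Each complex had 1 member that rose and 1 that fell, among 6 for MLL3/4 and among 4 for SETD1. By the looser measure of groups whose libraries do not overlap, 7 members separated (4 higher, 3 lower), against 61.8% of all genes (25.8% higher and 35.9% lower). Adjusted p-values here and below come from limma on log2(TPM + 1), over all genes tested, with a threshold of 0.05.

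**Figure D1:**
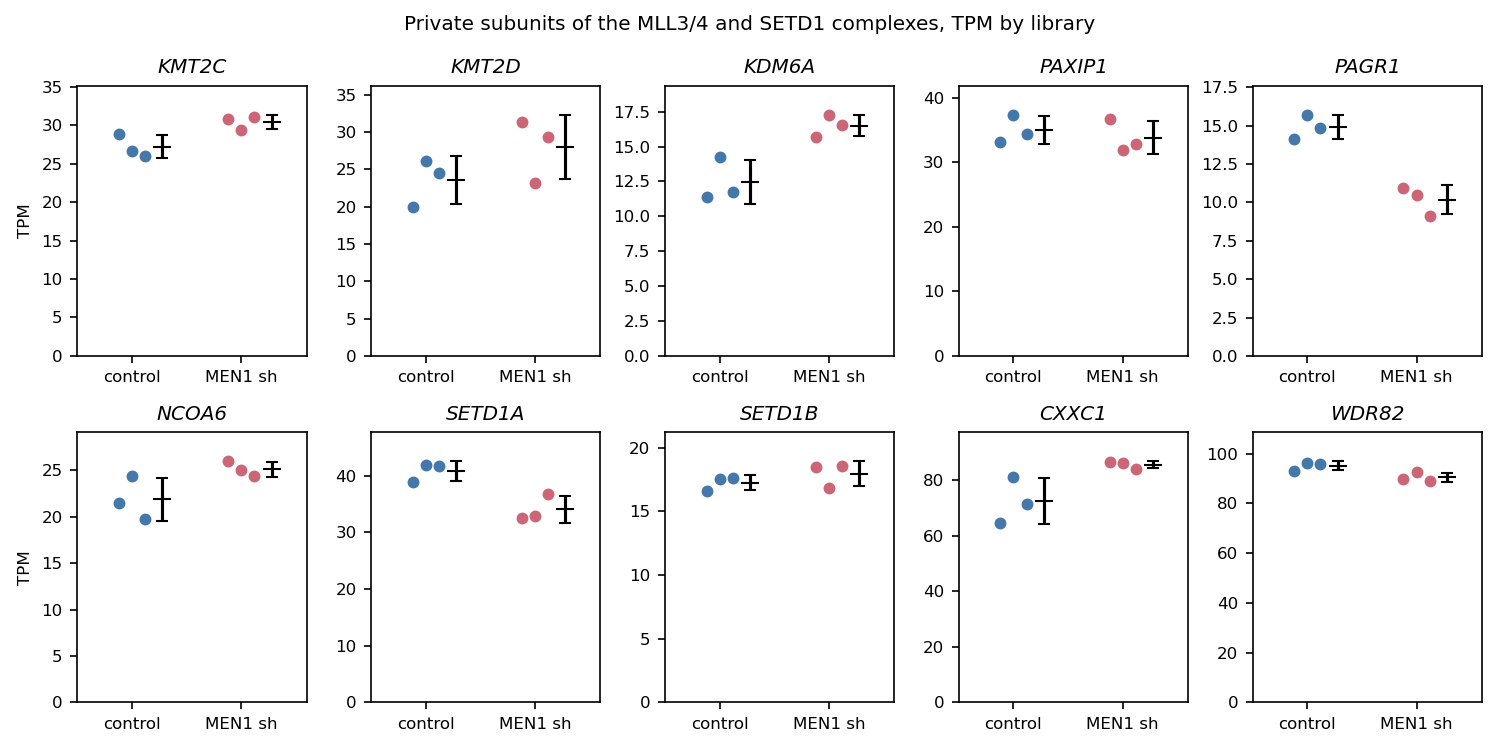
TPM of each of the 10 members (vertical axis, starting at 0) in the 3 control libraries (blue) and the 3 MEN1 shRNA libraries (red), with the mean and SD beside each group. KDM6A and CXXC1 sit higher and PAGR1 and SETD1A lower with the MEN1 shRNA without overlap, and KMT2D, PAXIP1 and SETD1B overlap.

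In control cells the accessory subunits WDR82 and CXXC1 had the highest levels, at 95.05 ± 1.81 and 72.5 ± 8.28 TPM (SD, n = 3). SETD1A followed at 40.8 ± 1.68, PAXIP1 at 35.0 ± 2.14, KMT2C at 27.2 ± 1.49, KMT2D at 23.6 ± 3.17 and NCOA6 at 21.9 ± 2.32 TPM. The lowest were SETD1B at 17.3 ± 0.589, PAGR1 at 14.9 ± 0.780 and KDM6A at 12.5 ± 1.58 TPM. Neighbours in this order were separated in every control library except KMT2C and KMT2D, KMT2D and NCOA6, and PAGR1 and KDM6A, whose libraries overlapped. With the MEN1 shRNA the order was the same but for the last pair, in which KDM6A, at 16.5 ± 0.770 TPM, stood above PAGR1, at 10.2 ± 0.966 TPM. Deposited gene coverage, scaled to reads per base at a depth of 1000000000 aligned bases, gave another order below SETD1A: SETD1B at 7.22, PAGR1 at 6.80, PAXIP1 at 6.33, NCOA6 at 4.94, KMT2D at 4.79, KMT2C at 1.92 and KDM6A at 1.16. The level of KMT2C relative to KMT2D therefore depended on the column. Log2 fold changes by coverage, given below, use a pseudocount of 0.1, since a pseudocount of 1 shrinks changes of values near 1. TPM also rests on how reads were divided among isoforms, whose part in this difference was not tested. GENCODE release 29 lists 13 transcripts for KMT2C, 8 for KMT2D and 14 for KDM6A, against 1 for PAGR1.

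KMT2C, the MLL3 methyltransferase (ENSG00000055609, chromosome 7, 152134922 to 152436644, minus strand), had 30.8, 29.4 and 31.1 TPM in MEN1 shRNA replicates 1 to 3 and 28.9, 26.6 and 26.1 TPM in control replicates 1 to 3. The groups did not overlap, though control replicate 1 came within 1 TPM of the lowest MEN1 shRNA library. The log2 fold change was 0.16 (SE 0.0705, 95% interval -0.01 to 0.32), and limma did not call it (adjusted p = 0.0960). It was called under median-of-ratios scaling, rescaling without globin and mitochondrial genes and quantile normalization (0.21 to 0.27, limma adjusted p = 0.020 to 0.050), and coverage gave 0.07 (limma adjusted p = 0.589). Its 7 partial-copy genes had at most 0.223 TPM.

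KMT2D, the MLL4 methyltransferase (ENSG00000167548, chromosome 12, 49018975 to 49060794, minus strand), had 31.4, 23.1 and 29.4 TPM with the MEN1 shRNA and 20.0, 26.1 and 24.6 TPM in the controls. It was the most variable member, with replicate 2 of the MEN1 shRNA inside the control range. Its log2 fold change of 0.24 (SE 0.139, 95% interval -0.09 to 0.56) was not called (limma adjusted p = 0.194). An unnamed gene that overlaps 5101 bases of KMT2D on the same strand was listed at 11.2 TPM in MEN1 shRNA replicate 1 and at 0 in the other 5 libraries. Adding that gene to KMT2D, an alternative chosen after seeing the data, gave 0.38, with a limma adjusted p of 0.165.

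KDM6A (UTX, ENSG00000147050, chromosome X, 44873188 to 45112779, plus strand), the demethylase of H3 lysine 27 in these complexes, had 15.7, 17.2 and 16.5 TPM with the MEN1 shRNA and 11.4, 14.3 and 11.7 TPM in the controls. Every MEN1 shRNA library exceeded every control, and the mean was 32.2% higher. KDM6A rose by 0.38 on the log2 scale (SE 0.104, 95% interval 0.14 to 0.62, limma adjusted p = 0.0161), the largest rise among the members. By coverage it rose by 0.39 (limma adjusted p = 0.0216), from a mean of 1.16 to 1.55 reads per base at the common depth. The call was lost without MEN1 shRNA replicate 2 (limma adjusted p = 0.0557), control replicate 1 (0.0534) or control replicate 3 (0.0554).

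PAXIP1 (PTIP, ENSG00000157212, chromosome 7, 154943687 to 155003124, minus strand), a BRCT-domain protein that recruits MLL3/4 complexes and also acts with 53BP1 in DNA repair, had 36.7, 31.9 and 32.9 TPM with the MEN1 shRNA and 33.2, 37.3 and 34.3 TPM in the controls. The groups overlapped. Its log2 fold change was -0.05 (SE 0.0814, 95% interval -0.24 to 0.14, limma adjusted p = 0.655), and its sign turned under the same 3 scalings, to 0.01, 0.02 and 0.05. PAXIP1-AS2, an antisense gene overlapping 8502 of its bases, had 4.13 to 7.03 TPM.

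PAGR1 (PA1, ENSG00000280789, chromosome 16, 29816152 to 29822489, plus strand), the partner that binds PAXIP1, moved most. Its levels were 10.9, 10.5 and 9.10 TPM with the MEN1 shRNA and 14.1, 15.7 and 14.8 TPM in the controls. The groups stood well apart, with every MEN1 shRNA library below 11 TPM and every control above 14. PAGR1 fell by 0.51 on the log2 scale (SE 0.0972, 95% interval -0.74 to -0.28, limma adjusted p = 0.00324), and its mean was 31.6% lower (10.2 ± 0.966 against 14.9 ± 0.780 TPM). By coverage it fell by 0.51 (limma adjusted p = 0.00346), and it stayed called under all 16 alternatives, at -0.56 to -0.38. It was thus the only member called in every one of them. The deposited gene overlaps 2096 bases of MVP, the major vault protein gene, on the same strand. MVP had 29.7, 42.6 and 41.9 TPM with the MEN1 shRNA and 16.1, 13.9 and 16.0 TPM in the controls, in the opposite direction. MVP-DT, on the other strand, overlaps 5101 bases and had 9.21, 6.65 and 18.8 TPM with the MEN1 shRNA and 0.552, 5.84 and 1.85 TPM in the controls. The part of these overlaps in the value of PAGR1 was not tested.

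NCOA6 (ENSG00000198646, chromosome 20, 34689097 to 34825651, minus strand), the nuclear receptor coactivator of the MLL3/4 complexes, had 26.0, 25.01 and 24.4 TPM with the MEN1 shRNA and 21.5, 24.4 and 19.8 TPM in the controls. The groups separated by less than 0.1 TPM, with MEN1 shRNA replicate 3 just above control replicate 2. Its log2 fold change of 0.20 (SE 0.0901, 95% interval -0.01 to 0.41) missed the threshold (limma adjusted p = 0.105). Coverage gave 0.23 with a limma adjusted p of 0.0176, and without control replicate 2 TPM gave 0.27 with 0.0401. Under the 3 scalings that called KMT2C, NCOA6 was called too (0.25 to 0.32, limma adjusted p = 0.0165 to 0.0433). Overlapping genes differed between the groups in both directions: PIGU, on the same strand over 9694 bases, had 15.9, 12.4 and 11.9 TPM against 23.9, 23.8 and 26.1 TPM in the controls. TP53INP2, on the other strand, had 9.96, 12.4 and 13.6 TPM against 4.43, 4.29 and 4.97 TPM. Their part in the value of NCOA6 was not tested.

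SETD1A (ENSG00000099381, chromosome 16, 30957294 to 30984664, plus strand), a methyltransferase of the SETD1 complexes, had 32.5, 32.9 and 36.7 TPM with the MEN1 shRNA and 38.9, 41.9 and 41.6 TPM in the controls. All 3 MEN1 shRNA libraries lay below all 3 controls, and the mean was 16.6% lower (34.0 ± 2.34 against 40.8 ± 1.68 TPM). SETD1A fell by 0.26 on the log2 scale (SE 0.0740, 95% interval -0.43 to -0.08, limma adjusted p = 0.0206), and by coverage it fell by 0.27 (limma adjusted p = 0.00156). The TPM call was lost without MEN1 shRNA replicate 2 (limma adjusted p = 0.0680), control replicate 2 (0.0667) or control replicate 3 (0.0656), and under the rescaling and the quantile normalization, at -0.19 and -0.17 (0.0569 and 0.0611).

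SETD1B (ENSG00000139718, chromosome 12, 121804009 to 121832656, plus strand), its paralog, had 18.5, 16.8 and 18.6 TPM with the MEN1 shRNA and 16.6, 17.6 and 17.6 TPM in the controls. The groups overlapped, and the log2 fold change was 0.05 (SE 0.0779, 95% interval -0.13 to 0.23, limma adjusted p = 0.595). By coverage the sign turned, at -0.01 (limma adjusted p = 0.883).

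CXXC1 (CFP1, ENSG00000154832, chromosome 18, 50282343 to 50287839, minus strand), the CG-binding subunit, had 86.4, 86.1 and 84.1 TPM with the MEN1 shRNA and 64.7, 81.2 and 71.4 TPM in the controls. The MEN1 shRNA libraries were close to each other and above all controls, which were spread (85.5 ± 1.24 against 72.5 ± 8.28 TPM). CXXC1 rose by 0.24 on the log2 scale (SE 0.0852, 95% interval 0.04 to 0.44, limma adjusted p = 0.0439), or 18.1% in the mean. By coverage, the value was 0.07 and was not called (limma adjusted p = 0.481), so the call rests on the TPM column. GENCODE release 29 lists 17 transcripts of CXXC1, 10 of them with retained introns. The call was also lost without control replicate 1, 3 or any 1 of the MEN1 shRNA libraries (limma adjusted p = 0.0819 to 0.119), and it was kept without control replicate 2.

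WDR82 (ENSG00000164091, chromosome 3, 52254434 to 52288020, minus strand), which links SETD1 complexes to RNA polymerase II and also serves a phosphatase complex, had 90.0, 92.4 and 88.9 TPM with the MEN1 shRNA and 93.0, 96.3 and 95.8 TPM in the controls. The groups did not overlap, but its log2 fold change of -0.07 (SE 0.0521, 95% interval -0.19 to 0.05, limma adjusted p = 0.287) equalled the median of all genes tested. By coverage it was -0.02 (limma adjusted p = 0.730). Copies of WDR82 and CXXC1 had at most 0.175 and 0.0752 TPM.

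**Figure D2:**
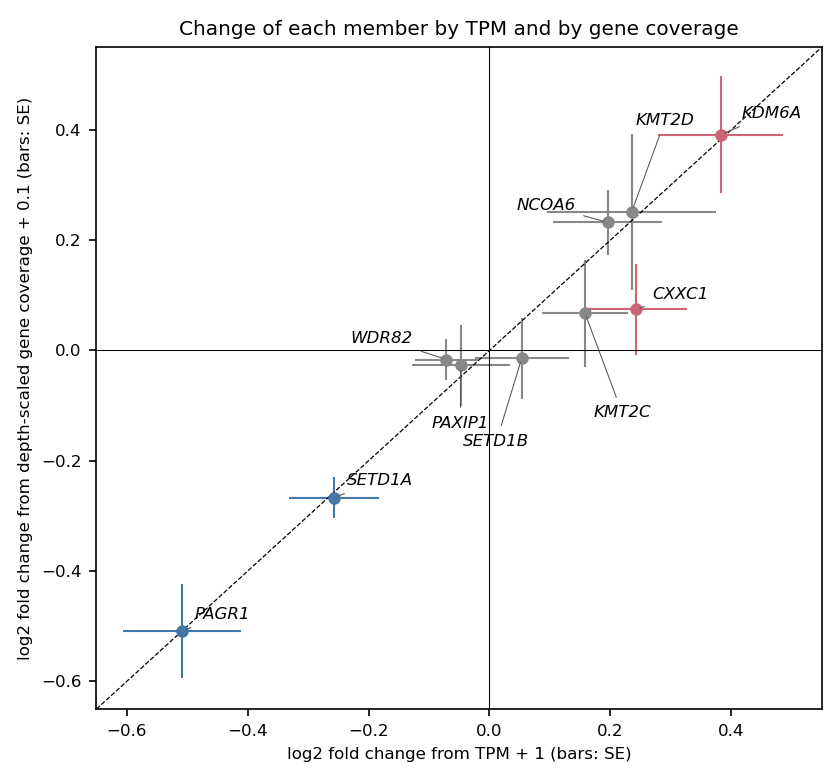
Log2 fold change, MEN1 shRNA minus control, of each member from TPM + 1 (horizontal) and from depth-scaled gene coverage + 0.1 (vertical), with SE bars and the line of equal values; red and blue are members called higher and lower by TPM. PAGR1, SETD1A and KDM6A lie near the line, while CXXC1 is at 0.24 by TPM and 0.07 by coverage.

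The paralogs were compared through their TPM ratio within each library, which the scaling of a library cannot move. The log2 ratio of SETD1A to SETD1B was 1.23, 1.25 and 1.24 in the controls, and 0.81, 0.97 and 0.98 in the MEN1 shRNA libraries. SETD1A thus exceeded SETD1B in all 6 libraries, 1.76 to 1.98-fold with the MEN1 shRNA and 2.35 to 2.39-fold in the controls, with no overlap. The mean log2 ratio differed by -0.32 (0.92 ± 0.0940 against 1.24 ± 0.0124, SD, n = 3 each), and the exact permutation test (2-sided) gave p = 0.1, its minimum for 3 against 3 libraries. The difference from coverage was -0.25, also at 0.1 in the exact test. For KMT2C to KMT2D the log2 ratios were 0.53, 0.03 and 0.08 in the controls, and -0.03, 0.35 and 0.08 in the MEN1 shRNA libraries, so that the groups overlapped. Their means, 0.13 ± 0.193 and 0.21 ± 0.274, differed by -0.08 (exact permutation p = 0.6), and without control replicate 1 the difference turned to 0.08. By coverage the log2 ratios of KMT2C to KMT2D were all below 0, at -1.60 to -1.17, and differed by -0.18 between the groups (exact permutation p = 0.2). With the overlapping gene added to KMT2D the TPM ratio differed by -0.23 (exact permutation p = 0.5). Adjusted over the 2 ratios tested, the exact permutation p-values were 0.2 and 0.6.

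**Figure D3:**
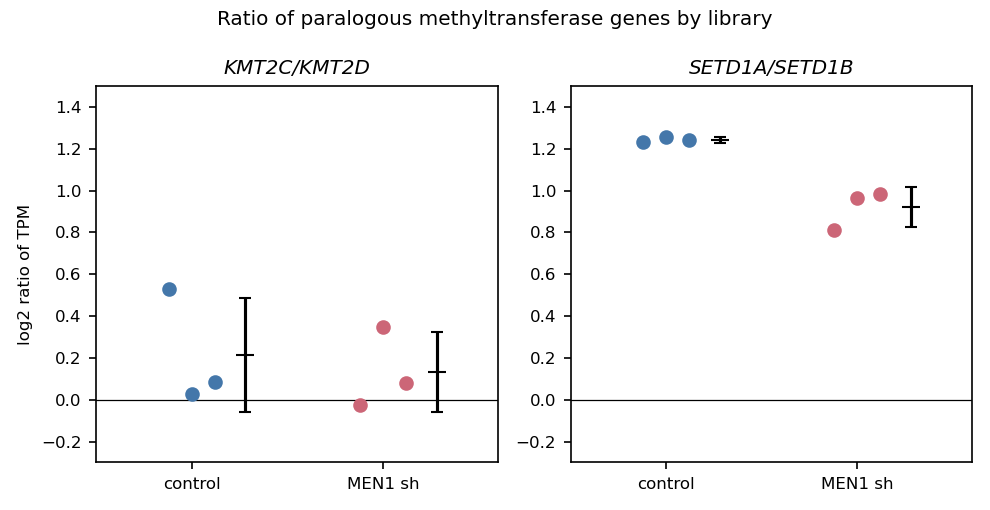
Log2 ratio of TPM within each library (vertical) for KMT2C to KMT2D and SETD1A to SETD1B, in control (blue) and MEN1 shRNA (red) libraries, with mean and SD. The SETD1A to SETD1B ratios are 1.23 to 1.25 in the controls and 0.81 to 0.98 with the MEN1 shRNA, and the KMT2C to KMT2D ratios overlap.

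Nearest profiles were sought among genes of mean TPM of 5 or more, leaving out members and genes with clone or LOC names, so 9799 candidates remained. The gene whose centred log2(TPM + 1) profile over the 6 libraries was nearest to KMT2C was ZNF92 (mean absolute difference 0.0248). For KMT2D it was AMIGO2 (0.0392), for SETD1A AP1G1 (0.0175) and for SETD1B FBXO30 (0.0102). AP1G1 had 35.0, 36.1 and 39.7 TPM with the MEN1 shRNA and 41.8, 44.5 and 43.4 TPM in the controls, close to the values of SETD1A in every library. With 6 libraries and this many candidates, such nearness is a description only.

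Of 33 genes in 6 lists of other COMPASS subunits, opposing enzymes and partners, MEN1 included, 24 were called (72.7%; 8 higher and 16 lower), against 53.6% of all genes tested (22.1% higher and 31.5% lower). The difference from the members was not tested, and the lists were chosen with earlier results of these data known. In the shared core, 1 of 4 rose and 1 fell (50.0% called, near the 53.6% of all genes). The median log2 fold change was 0.03 against -0.07 over all genes. ASH2L, which activates the methyltransferases, had 192, 214 and 205 TPM with the MEN1 shRNA and 120, 123 and 133 TPM in the controls, and rose by 0.70 (limma adjusted p = 1.2e-04). WDR5, the scaffold that holds the core together, had 45.8, 38.4 and 40.3 TPM against 59.5, 59.0 and 60.0 TPM and fell by 0.51 (limma adjusted p = 9.9e-04). The core subunits RBBP5 and DPY30, at -0.06 and 0.12, were not called. Core proteins serve the MLL1/2 complexes as well, so their values are not particular to the MLL3/4 and SETD1 complexes.

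Of the 4 private subunits of the MLL1/2 complexes, with MEN1 among them, 1 rose and 2 fell (median -0.03 against -0.07). That is 3 of 4 called, against 53.6% of all genes (22.1% higher and 31.5% lower). Among those that fell was MEN1, the target of the shRNA. KMT2A, the MLL1 methyltransferase, had 28.1, 31.2 and 33.9 TPM with the MEN1 shRNA and 21.5, 23.2 and 23.0 TPM in the controls, and rose by 0.44 (limma adjusted p = 0.00376). PSIP1, which tethers MLL1 and menin to chromatin, fell by 0.22 (limma adjusted p = 0.0409), a call that 11 of 16 alternatives lost. KMT2B, the MLL2 methyltransferase, was at 0.16, the size seen for KMT2C, and was not called (limma adjusted p = 0.0826).

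Of 5 host cell factor and SETD1-associated genes, 1 rose and 3 fell (80.0% called against 53.6% of all genes, median -0.29 against -0.07). BOD1, a relative of the SETD1A partner BOD1L1, had 7.35, 7.33 and 7.32 TPM with the MEN1 shRNA and 14.5, 17.3 and 13.5 TPM in the controls, and fell by 0.94 (limma adjusted p = 2.7e-04). BOD1L1 itself fell less, by 0.32 (limma adjusted p = 0.00891). HCFC1, a subunit of SETD1 and MLL1/2 complexes, fell by 0.29 (limma adjusted p = 0.00748), while its paralog HCFC2 rose by 0.90 (limma adjusted p = 0.00134). Of 6 genes listed here as H3K4 demethylases, the opposing enzymes, 4 were lower and 0 higher (66.7% called, median -0.41). Of all genes, 31.5% were lower and 22.1% higher. The activity of each listed enzyme on H3K4 was not tested. With 6 genes this count is a description only. KDM1B went furthest, from 39.4, 41.4 and 43.2 TPM in the controls to 18.5, 14.8 and 15.3 TPM, a log2 fold change of -1.31 (limma adjusted p = 5.2e-05). KDM2B fell by 0.85 (limma adjusted p = 3.1e-04) and KDM5B by 0.58 (limma adjusted p = 7.8e-04).

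Among 8 enhancer coactivators, which act at sites marked by MLL3/4, 4 rose and 2 fell (6 of 8 called, against 53.6% of all genes; median 0.24 against -0.07). NCOA3, a nuclear receptor coactivator like NCOA6, had 18.1, 20.8 and 21.1 TPM with the MEN1 shRNA and 11.3, 12.3 and 11.4 TPM in the controls, and rose by 0.73 (limma adjusted p = 4.0e-04). CREBBP, an acetyltransferase, rose by 0.44 (limma adjusted p = 9.3e-04), and ASXL1, a cofactor of the deubiquitinase BAP1, by 0.62 (limma adjusted p = 0.00260). The 2 that fell were EP300, the paralog of CREBBP, by 0.24 (limma adjusted p = 0.0213), and NCOA1, a paralog of NCOA3, by 0.27 (limma adjusted p = 0.0293), which was not called by coverage (limma adjusted p = 0.108). Of 6 partners of PAXIP1 and WDR82 outside COMPASS, 1 rose and 4 fell (83.3% called against 53.6% of all genes, median -0.28 against -0.07). PPP1CA, a catalytic subunit of protein phosphatase 1, rose by 0.58 (limma adjusted p = 1.6e-04), and its paralog PPP1CC fell by 0.29 (limma adjusted p = 0.00607). TP53BP1, the repair protein that PAXIP1 binds, fell by 0.56 (limma adjusted p = 0.00190).

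**Figure D4:**
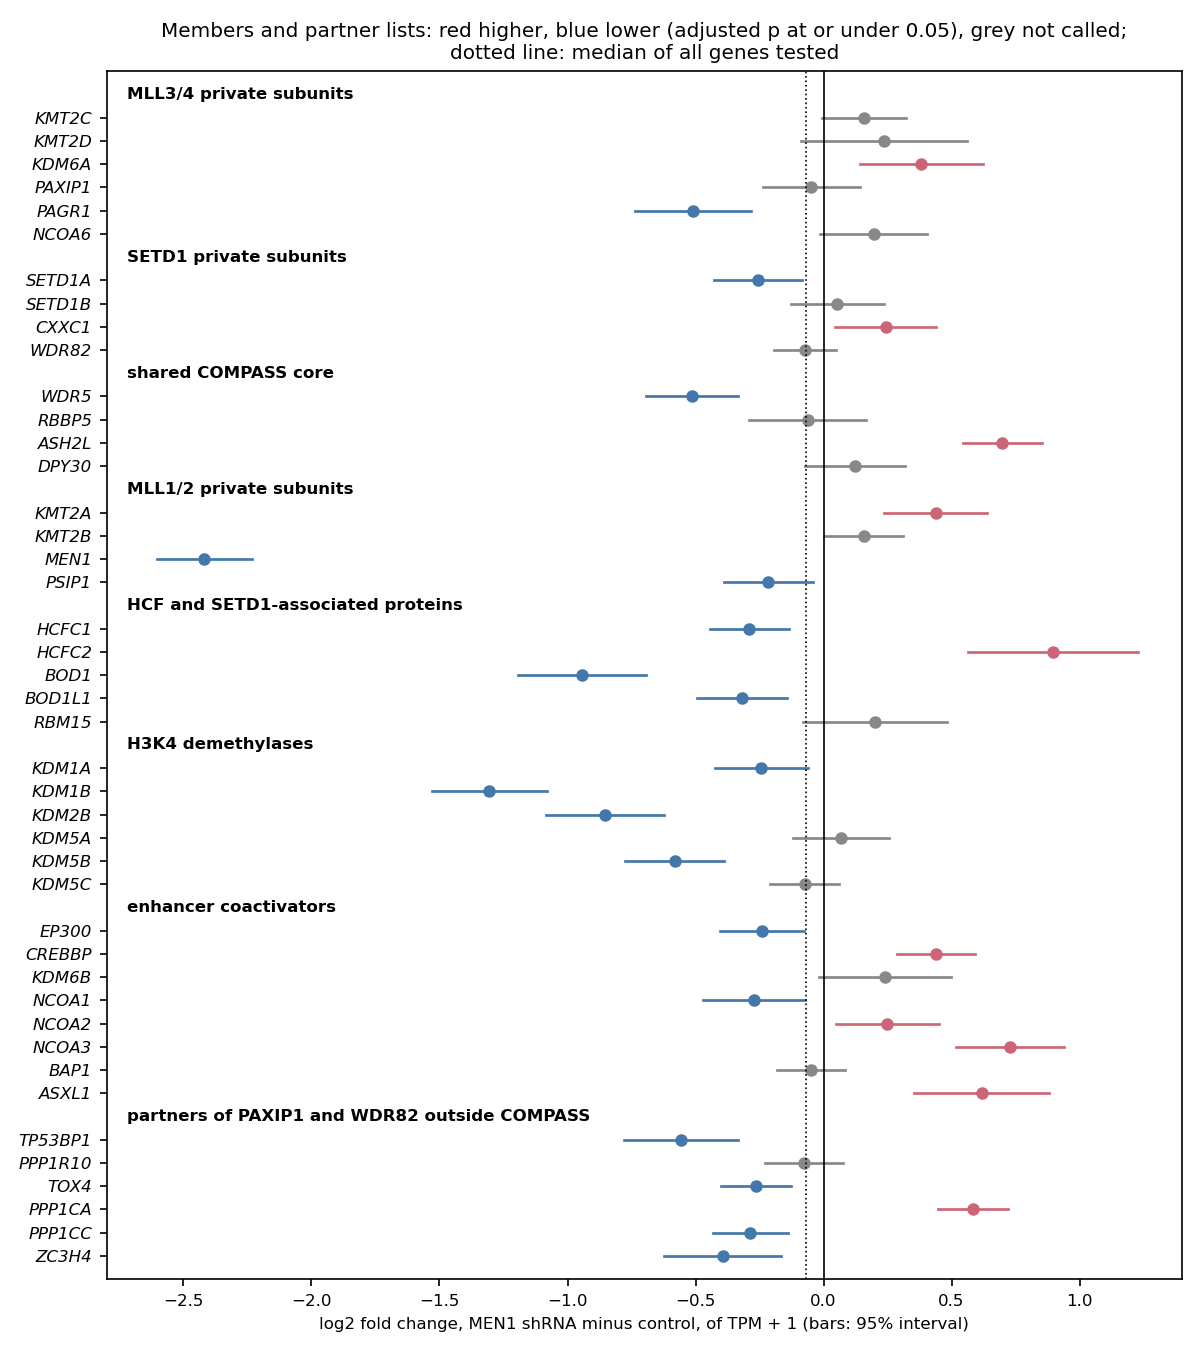
Log2 fold change of TPM + 1, MEN1 shRNA minus control, with 95% intervals, for the 10 members (top) and the 33 partner genes by list; red is called higher, blue lower and grey not called, and the dotted line is the median of all genes tested, -0.07. The members lie between -0.51 and 0.38, and the partner genes between -2.42 (MEN1) and 0.90 (HCFC2).

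**Figure D5:**
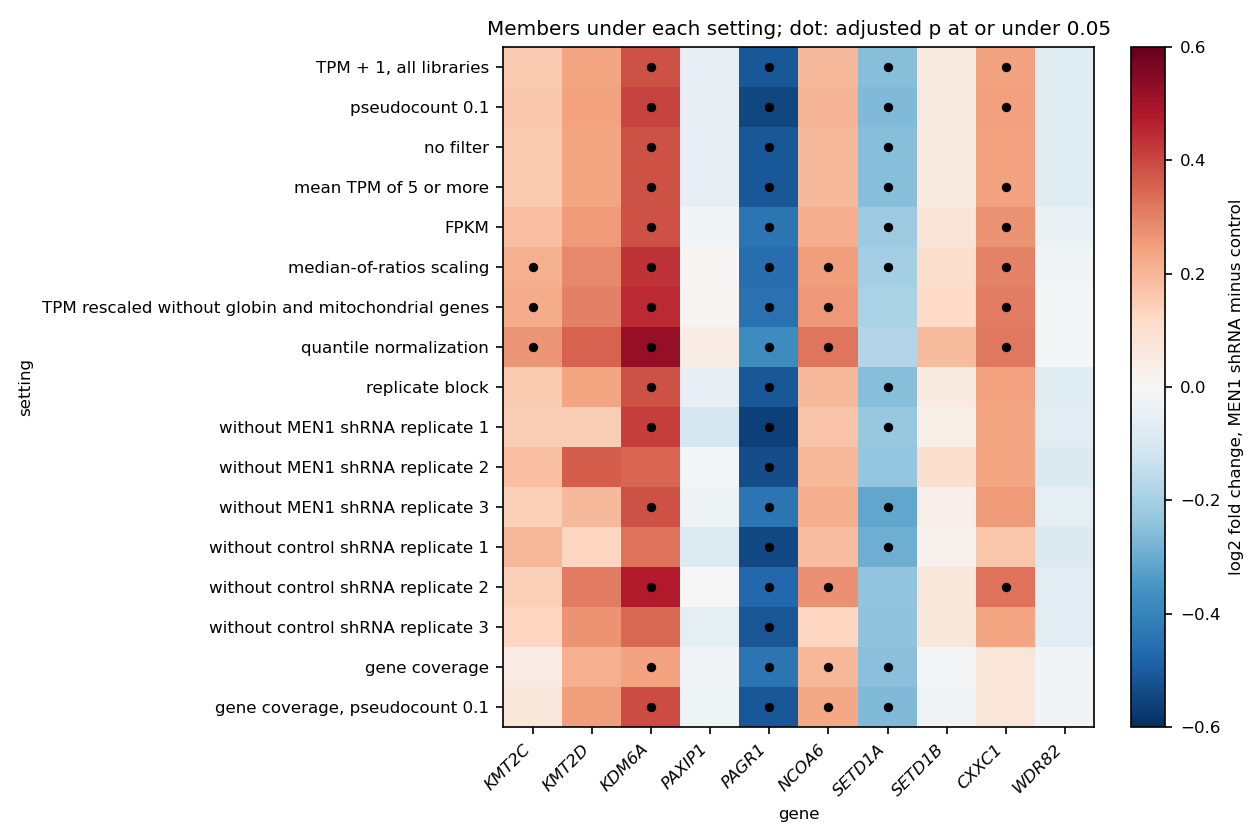
Log2 fold change, MEN1 shRNA minus control (colour scale), of each member (columns) under each setting (rows), with a dot where the limma adjusted p was at or under 0.05. PAGR1 carries a dot in every row, whereas KDM6A, SETD1A and CXXC1 lose theirs in some.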

How the data were processed

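Each of the 6 libraries has 1 deposited gene table with coverage, FPKM and TPM. Per the submitters' processing notes, FastQC, Trimmomatic, STAR 2.7.1a, Picard 2.20.4, StringTie 2.0.4 and hg38 were used, with no roles given, and the annotation is not given in the sources used here. The deposited TPM sum to 1000000 per library, the deposited FPKM are a fixed multiple of them within a library, and the deposited coverage is a signal in reads per base, not scaled for depth by the authors. Values just below 0 in 2 genes of control replicate 2, deposited in otherwise TPM or coverage columns, were set to 0. The tables hold no read counts, so no count model was fitted, and depth was taken from the ratio of coverage to FPKM.

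Genes with 1 TPM or more in at least 3 libraries were tested on log2(TPM + 1), a scale that understates changes of low genes, with limma 3.58.1 in R 4.3.3 (trend, 2-sided, Benjamini-Hochberg over all genes tested, 0.05), after testing on simulated data. Paralog ratios used exact permutation tests, and under the replicate block an exact sign-flip test of same-numbered libraries. The members and lists were chosen with earlier results of these data known. Named are the members, MEN1, KMT2A, and of each partner list the called genes with the lowest adjusted p (at most 3). Also named are the nearest profile of each methyltransferase and genes that overlap or copy a member. RBBP5, DPY30, KMT2B, BOD1L1, EP300, NCOA1 and the erythroid markers KLF1, GATA1, EPOR, HBB and HBA1 were added after their values were seen. Of 62754 gene identifiers, 58261 are in GENCODE release 29, and 58246 of these (99.97%) overlap their position there, so positions are given on GRCh38. Whether counting used strand is not stated, so reads of overlapping genes may not be separable.

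Alternatives were another pseudocount (0.1), no filter, a mean TPM of 5 or more, FPKM, median-of-ratios scaling, TPM rescaled without globin and mitochondrial genes, quantile normalization, a replicate block and leaving out each library. Gene coverage (with a pseudocount of 1 and of 0.1), and adding the overlapping gene to KMT2D, were alternatives chosen after seeing the data. Figures were drawn with Python 3.11.15 and matplotlib 3.10.9.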

Additional observations from a re-analysis of the deposited data

How the results depend on the processing

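MEN1 stayed lower throughout. The 10 members gave 161 comparisons with an alternative: 130 kept direction and side of the threshold, 17 fell out of the call, 9 entered it and 5 turned sign, none of these called (PAXIP1 to 0.0062, 0.0179 and 0.0459 under median-of-ratios, rescaled TPM and quantile scaling, SETD1B to -0.0126 and -0.0145 by coverage with a pseudocount of 1 and 0.1). Between 1 and 4 members, and 6577 to 7542 of all genes, were called when 1 library was left out. The count of members was 1, PAGR1, without MEN1 shRNA replicate 2 or control replicate 3, and 2 without control replicate 1. The other alternatives called 3 to 6 members. CXXC1 was also lost with no filter (limma adjusted p = 0.115). The log2 ratio of KMT2C to KMT2D ranged from -0.188 to 0.0768 without 1 library, with the turn of sign without control replicate 1. The cause was not tested.

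Replicate numbers did not pair the libraries (correlations of same-numbered deviations 0.02, -0.03 and -0.01; not every library correlated best with its own number). With a replicate block 3 members, 20 of 33 partner genes and 7012 of 14294 genes were called, against 4, 24 and 7657. CXXC1 was not among the 3 members (limma adjusted p = 0.059). The differences of the log2 ratios were unmoved at -0.08 and -0.32. For them the block was an exact sign-flip test of same-numbered libraries, with p = 0.75 and 0.25. The smallest p of that test for 3 pairs is 0.25, so it cannot be set against the exact permutation p. MEN1 was lower under the block as well. With 3 libraries a group and no counts, small changes of single members are not resolved.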
